A study of Mus musculus with 12 samples.

Results

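The calcium-sensing synaptotagmins are described here as the 8 genes Syt1, Syt2, Syt3, Syt5, Syt6, Syt7, Syt9 and Syt10, chosen by name from the 54446 gene identifiers in both count tables, and each symbol matched 1 identifier. They were followed in poly(A) RNA from 12 libraries of mouse brain, in 4 groups of 3: Syt14-/- hippocampus, Syt14+/+ hippocampus, Syt14-/- cerebellum and Syt14+/+ cerebellum. The 6 animals, 3 of each genotype, each gave both tissues, so that the replicates of a group are separate animals and the tissues are paired within an animal. The labels describe the knockout only by its genotype. The sources used here do not give strain, sex, age or the deleted part of Syt14. No treatment is named for any group.

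Synaptotagmins are membrane-anchored proteins with a pair of C2 domains in the cytoplasm. In the members described here, acidic residues in these domains bind calcium ions, which drives the domains onto phospholipid membranes and onto the SNARE complex and so couples calcium entry to membrane fusion. The isoforms differ in calcium affinity, speed and location, and Syt14, the gene altered in these animals, belongs to the members of the family that are held not to bind calcium. Syt1 and Syt2 are the sensors of fast, synchronous transmitter release, Syt1 chiefly in the forebrain and Syt2 in hindbrain, cerebellum and fast-spiking interneurons. Syt7 is a slower sensor of high affinity that serves asynchronous release and vesicle replenishment. The names Syt5 and Syt9 have been exchanged in part of the literature, so the symbols below are those of the gene annotation and no single role is attached to either.

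Library totals were 24355572 to 34971359 counts, and all 8 genes passed the filter on low counts in every comparison, with 126 to 53008 counts in a library. The hippocampal marker genes summed to 1074 to 1219.9 CPM (counts scaled to library size) in the hippocampus libraries and 325 to 371 in the cerebellum libraries, and the Purkinje cell markers to 622 to 697 and 5719.6 to 7352, so that the tissues matched their labels. The column headers carry a token, read here as the sequencing lane, that is 1 for every hippocampus library and 4 for every cerebellum library, so tissue and lane cannot be told apart. Levels of single genes below are CPM scaled by TMM factors (trimmed means over the 12 libraries), and those of marker genes are plain CPM. Syt14 itself read 29.2, 28.0 and 30.6 CPM in knockout hippocampus, against 38.5, 38.9 and 38.1 CPM in wild-type hippocampus. In the cerebellum it read 30.6, 30.7 and 30.3 CPM in the knockouts, against 33.8, 33.3 and 38.2 CPM in wild type. The groups did not overlap in either tissue, but Syt14 did not pass the adjusted threshold in either (edgeR quasi-likelihood test, adjusted p of 0.686 for hippocampus and 0.644 for cerebellum).

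The promoters of the 3 members at the ends of the tissue contrast for which a sequence was at hand are shown because they can be set beside levels that run in opposite directions: Syt1 was higher in the hippocampus, and Syt2 and Syt9 were higher in the cerebellum. The windows span 250 bases before to 50 bases after the RefSeq start nearest to the annotated gene start, in build GRCm38.p6, written 5′ to 3′ on the strand of the gene. The source held 2 promoters for Syt1, 2 for Syt2, 3 for Syt6 and 1 each for Syt3, Syt9 and Syt10. Only the nearest was read, and which start these tissues use was not tested. Syt1 lies on the minus strand at chr10:109010926-109011225, Syt2 on the plus strand at chr1:134646362-134646661, and Syt9 on the plus strand at chr7:107370540-107370839. Capitals mark matches, on either strand, to the GC box GGGCGG and to CCAAT.
Syt1: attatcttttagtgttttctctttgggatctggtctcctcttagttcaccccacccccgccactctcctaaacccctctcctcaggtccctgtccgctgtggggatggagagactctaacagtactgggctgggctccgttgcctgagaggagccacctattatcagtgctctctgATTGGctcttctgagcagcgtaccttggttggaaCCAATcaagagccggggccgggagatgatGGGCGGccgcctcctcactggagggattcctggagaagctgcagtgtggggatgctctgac
Syt2: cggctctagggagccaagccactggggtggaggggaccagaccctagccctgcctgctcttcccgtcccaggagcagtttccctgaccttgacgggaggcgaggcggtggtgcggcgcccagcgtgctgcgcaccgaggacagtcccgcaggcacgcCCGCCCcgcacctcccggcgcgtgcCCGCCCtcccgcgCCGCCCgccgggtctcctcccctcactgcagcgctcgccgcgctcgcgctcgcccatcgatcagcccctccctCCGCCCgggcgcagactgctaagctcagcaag
Syt9: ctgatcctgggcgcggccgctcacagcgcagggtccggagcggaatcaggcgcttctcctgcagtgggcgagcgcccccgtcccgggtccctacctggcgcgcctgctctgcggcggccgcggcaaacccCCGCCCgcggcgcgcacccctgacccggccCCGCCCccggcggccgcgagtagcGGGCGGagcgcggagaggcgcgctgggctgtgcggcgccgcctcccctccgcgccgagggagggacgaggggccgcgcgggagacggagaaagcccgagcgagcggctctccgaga
The Syt2 window held 34 CG pairs at 74.3% G and C, and the Syt9 window 49 CG pairs at 79.3%. The Syt1 window held 8 CG pairs at 56.7%, close to the median of all 32851 promoters of this length (7 CG pairs, 52.7%). GGGCGG matched at 4 places in Syt2, 3 in Syt9 and 1 in Syt1, and 35.7% of all promoters hold it. CCAAT matched at 2 places in Syt1 and at none in Syt2 or Syt9, and 37.4% of all promoters hold it. TATAAA, TGACGTCA and CAGCTG were searched on both strands as well and had no match in these 3 windows; 13.6%, 1.79% and 16.3% of all promoters hold them. No match overlapped another in these windows, and a match describes letters, not a site in use. Of the 8 genes, 6 had a promoter sequence, and Syt5 and Syt7 had none. Among the windows not printed, Syt3, higher in the hippocampus, held 17 CG pairs at 66.3% G and C. Syt6, higher in the cerebellum, held 16 CG pairs at 61.0%. Syt10, with a small tissue difference, held 35 CG pairs at 70.7%. GGGCGG matched at 0 places in Syt3, 2 in Syt6 and 3 in Syt10. A relation of these letters to the tissue levels was not tested.

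Among the sensors of fast release, Syt1 was the most abundant of the 8 genes in the hippocampus. It read 1685, 1768 and 1825 CPM in knockout hippocampus and 1814, 1833 and 1932 CPM in wild-type hippocampus. In the cerebellum it read 588, 501 and 521 CPM in the knockouts and 557, 477 and 503 CPM in wild type. Every hippocampus library thus lay far above every cerebellum library, while the genotypes overlapped within each tissue. Syt1 exceeded 99.5% of the 19027 genes expressed in these libraries in both genotypes of hippocampus, on the scale per kilobase of exon.

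Syt2, the counterpart of Syt1 in the hindbrain, ran the other way. It read 33.1, 43.5 and 67.0 CPM in knockout hippocampus and 54.9, 41.9 and 61.7 CPM in wild-type hippocampus. In the cerebellum it read 572, 554 and 605 CPM in the knockouts and 631, 617 and 673 CPM in wild type. The cerebellum libraries were all higher than the hippocampus libraries, and in the cerebellum every knockout library lay below every wild-type library. Such a lack of overlap, in either direction, was seen for 11.9% of all genes tested between the genotypes of cerebellum. The ratio of Syt1 to Syt2, on CPM per kilobase of exon, was 36.3 ± 10.8 in knockout hippocampus and 33.0 ± 6.16 in wild-type hippocampus. In the cerebellum this ratio was 0.853 ± 0.0796 in knockouts and 0.734 ± 0.0652 in wild type (SD, n = 3 each). The length used was that of all annotated exons merged. With the longest transcript as the length, Syt1 stood above Syt2 in the cerebellum of both genotypes.

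Syt7, the sensor of asynchronous release, was abundant in both tissues. It read 537, 495 and 542 CPM in knockout hippocampus and 480.5, 497 and 479 CPM in wild-type hippocampus. In the cerebellum it read 415, 404 and 459 CPM in the knockouts and 419.9, 427 and 447 CPM in wild type. Here the tissues lay closer together than for Syt1 or Syt2, and in both the genotypes overlapped. Syt3, a high-affinity member linked to the uptake of AMPA receptors from the postsynaptic membrane, was higher in every hippocampus library than in every cerebellum library, by a small step. Its levels were 69.4, 67.8 and 66.9 CPM in knockout hippocampus, 68.9, 74.9 and 67.0 CPM in wild-type hippocampus, 57.0, 49.6 and 57.8 CPM in knockout cerebellum and 56.5, 55.4 and 52.8 CPM in wild-type cerebellum.

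Syt5 and Syt9 were mirror images between the tissues. Syt5 read 139, 123 and 138 CPM in knockout hippocampus and 129, 133 and 142 CPM in wild-type hippocampus. In the cerebellum it read 11.7, 7.94 and 4.18 CPM in the knockouts and 8.15, 4.52 and 3.95 CPM in wild type. The cerebellar libraries spread widely, and their genotypes overlapped. Syt9 read 8.14, 12.2 and 5.20 CPM in knockout hippocampus and 7.62, 7.64 and 8.03 CPM in wild-type hippocampus, and 67.0, 60.5 and 68.9 CPM in knockout cerebellum and 73.6, 68.9 and 67.0 CPM in wild-type cerebellum. In knockout hippocampus Syt9 varied with a coefficient of variation of 41.3%, against 2.95% in wild-type hippocampus.

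Syt6 and Syt10 were the members of low level in both tissues. Syt6, best known for its part in the acrosome reaction of sperm, read 8.68, 9.16 and 5.40 CPM in knockout hippocampus and 7.47, 9.65 and 7.32 CPM in wild-type hippocampus, and 17.0, 12.3 and 12.3 CPM in knockout cerebellum and 14.0, 13.1 and 14.5 CPM in wild-type cerebellum. Syt10, which triggers the secretion of IGF-1 in olfactory bulb neurons, read 6.67, 6.75 and 5.71 CPM in knockout hippocampus and 8.65, 6.91 and 5.90 CPM in wild-type hippocampus. In the cerebellum it read 7.69, 8.17 and 8.20 CPM in the knockouts and 8.87, 7.19 and 9.66 CPM in wild type. Syt6 was higher in all cerebellum libraries than in all hippocampus libraries, whereas Syt10 overlapped between the tissues in wild type. Per the annotation, Syt6 shares 505 exon bases with Atg4a-ps and Syt7 shares 384 with Gm26859, both on the opposite strand, and these neighbours held 8 and 21 counts over all libraries.

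**Figure D1:**
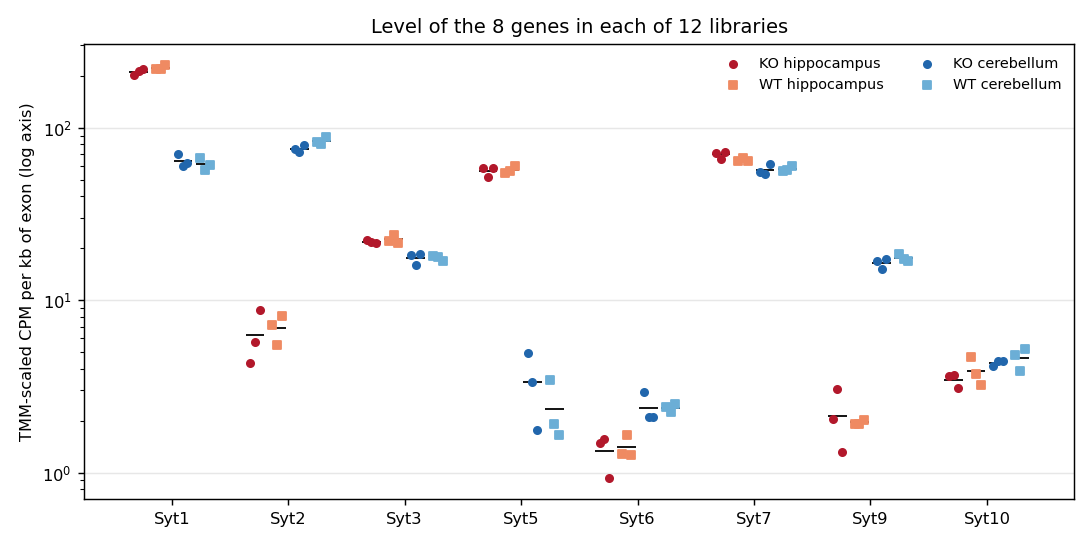
Level of each of the 8 genes in the 12 libraries, as CPM scaled by TMM factors and divided by the kilobases of annotated exon, on a log axis. Points are libraries and the horizontal bars are means of 3, with Syt1 and Syt5 higher in the hippocampus and Syt2 and Syt9 higher in the cerebellum in both genotypes.

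Levels between genes were compared per kilobase of merged exon, as CPM per kilobase (CPM/kb). In the hippocampus the order was the same in both genotypes: Syt1 (211 ± 8.42 in knockout, 223 ± 7.60 in wild type), Syt7 (70.1 and 64.9), Syt5 (56.0 and 56.7), Syt3 (21.8 and 22.5), Syt2 (6.26 and 6.92), Syt10 (3.46 and 3.88), Syt9 (2.14 and 1.95) and Syt6 (1.33 and 1.40), all in CPM/kb. Neighbours in this order did not overlap over their 3 libraries, except Syt9 and Syt6 in knockout hippocampus. With the longest transcript as the length in place of merged exons, Syt5 stood above Syt7 in wild-type hippocampus.

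In the cerebellum Syt2 led, at 75.6 ± 3.39 CPM/kb in knockout and 83.8 ± 3.78 CPM/kb in wild type. Syt1 followed at 64.3 and 61.4 CPM/kb and Syt7 at 56.9 and 57.6 CPM/kb, and these overlapped in both genotypes. Syt3 stood at 17.6 CPM/kb in both genotypes and overlapped Syt9, which stood at 16.5 CPM/kb in knockout and 17.6 CPM/kb in wild type. Syt10 had 4.35 and 4.65 CPM/kb, Syt5 3.34 and 2.33 CPM/kb and Syt6 2.38 CPM/kb in both genotypes. In the knockouts Syt5 overlapped both Syt10 and Syt6, which did not overlap each other, and in wild type Syt6 and Syt5 overlapped. With the longest transcript as the length, Syt1 stood above Syt2 in the cerebellum of both genotypes, so which of them leads depends on the transcript length assumed. The difference of each gene between tissues does not depend on the length.

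Summed over the 8 genes, the level was 372 ± 11.0 CPM/kb in knockout hippocampus and 381 ± 9.40 CPM/kb in wild-type hippocampus, and 241 ± 11.6 CPM/kb in knockout cerebellum and 247 ± 8.04 CPM/kb in wild-type cerebellum (SD, n = 3 each). Syt1 made up 56.7% of this sum in knockout hippocampus and 58.5% in wild-type hippocampus, against 26.7% in knockout cerebellum and 24.8% in wild-type cerebellum. Syt2 made up 1.67% and 1.81% of it in knockout and wild-type hippocampus, and 31.4% and 33.9% in knockout and wild-type cerebellum. These shares depend on the length assumed, and with the longest transcript Syt1 stood above Syt2 in the cerebellum. Syt7 held 18.8% and 17.0% in the hippocampus and 23.6% and 23.3% in the cerebellum, knockout before wild type in each tissue. Syt5 held 15.1% and 14.9% in the hippocampus but 1.39% and 0.938% in the cerebellum, and Syt9 held 0.579% and 0.512% in the hippocampus but 6.83% and 7.10% in the cerebellum. RNA of whole tissue cannot tell fewer cells that express a gene from less of its RNA in each cell.

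**Figure D2:**
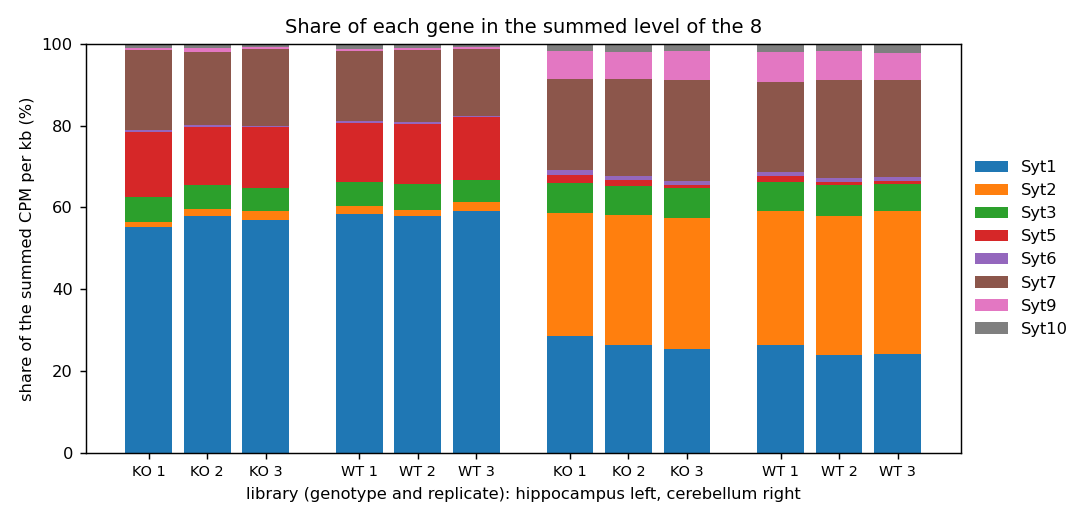
Share of each of the 8 genes in their summed CPM per kilobase of exon, 1 stacked bar per library, with the hippocampus on the left and the cerebellum on the right and knockout left of wild type in each tissue. Syt1 makes up 55.2 to 59.2% of the hippocampus bars and Syt2 30.2 to 35.1% of the cerebellum bars.

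Between hippocampus and cerebellum, Syt1, Syt2, Syt5 and Syt9 differed by over 3-fold in both genotypes, and Syt3, Syt6, Syt7 and Syt10 by less than 2-fold. The fits compared group means and left out the pairing of tissues within an animal. With the animal as a block, no call of these genes changed. In knockout animals Syt1 was 3.27-fold higher in the hippocampus, with a log2 fold change of 1.71 ± 0.066 (SE, n = 3 each; edgeR quasi-likelihood test, Benjamini-Hochberg adjusted p = 2.41e-08). In wild-type animals it was 3.64-fold higher, at 1.86 ± 0.061 (adjusted p = 1.92e-11 by edgeR). Syt5 was 16.8-fold higher in the hippocampus of knockouts and 25.2-fold higher in that of wild type (log2 4.07 ± 0.24 and 4.66 ± 0.16, edgeR adjusted p = 4.29e-07 and 3.03e-11). Syt3 and Syt7 were higher in the hippocampus by small steps, Syt3 by 1.24-fold in knockouts and 1.28-fold in wild type, and Syt7 by 1.23-fold in knockouts and 1.13-fold in wild type.

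The 3 members Syt2, Syt9 and Syt6 ran lower in the hippocampus in both genotypes. Syt2 was 12.1-fold lower in knockouts and 12.1-fold lower in wild type (log2 -3.59 ± 0.21 and -3.60 ± 0.11, edgeR adjusted p = 3.95e-07 and 8.19e-12). Syt9 was 7.72-fold lower in knockouts and 8.97-fold lower in wild type (log2 -2.95 ± 0.22 and -3.16 ± 0.068, edgeR adjusted p = 2.21e-06 and 3.40e-13). Syt6 was 1.80-fold lower in knockouts and 1.69-fold lower in wild type (log2 -0.85 ± 0.20 and -0.76 ± 0.12). Syt10 passed the threshold in knockouts only by a narrow margin (log2 -0.34 ± 0.12, edgeR adjusted p = 0.0295) and did not pass it in wild type (log2 -0.25 ± 0.16, edgeR adjusted p = 0.175). Over the 14 alternatives the wild-type value ran from -0.411 to -0.131, and it was called without wild-type hippocampus replicate 1 (log2 -0.411, adjusted p = 0.0442 by edgeR) and with library totals. The Syt10 call was lost without knockout hippocampus replicate 3 (adjusted p = 0.115), without any single knockout cerebellum replicate (0.0525 to 0.0731), with DESeq2 (0.0816), with no filter on low counts (0.0579) and with all 12 libraries in the edgeR fit (0.0624).

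In knockout animals 8 of the 8 genes were called, 4 higher and 4 lower in the hippocampus, where 64.1% of all 18200 genes tested were called, 31.6% higher and 32.5% lower. In wild-type animals 7 of the 8 were called, 4 higher and 3 lower, where 66.1% of all 18128 genes tested were called, 33.1% higher and 33.0% lower. A call was thus common among all genes. The libraries of the 2 tissues did not overlap for 8 of the 8 genes in knockouts, against 70.3% of all genes, and for 7 of the 8 in wild type, against 70.7%. The median size of the log2 change over the 8 genes was 1.28 in knockouts and 1.31 in wild type, where over all genes tested it was 0.462 and 0.464. Scaling by library totals in place of TMM moved the median of all genes to -0.162 in both genotypes, from a main value of -0.0251 in knockouts and -0.0221 in wild type. Under it, 4662 genes were higher and 7572 lower in knockouts, against 5746 and 5918 with TMM, and 4852 were higher and 7607 lower in wild type, against 6005 and 5981 with TMM. The wild-type call of Syt7 was lost under that scaling (log2 0.037, adjusted p = 0.463 by edgeR) and Syt10 was called (log2 -0.39, adjusted p = 0.0391 by edgeR).

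**Figure D3:**
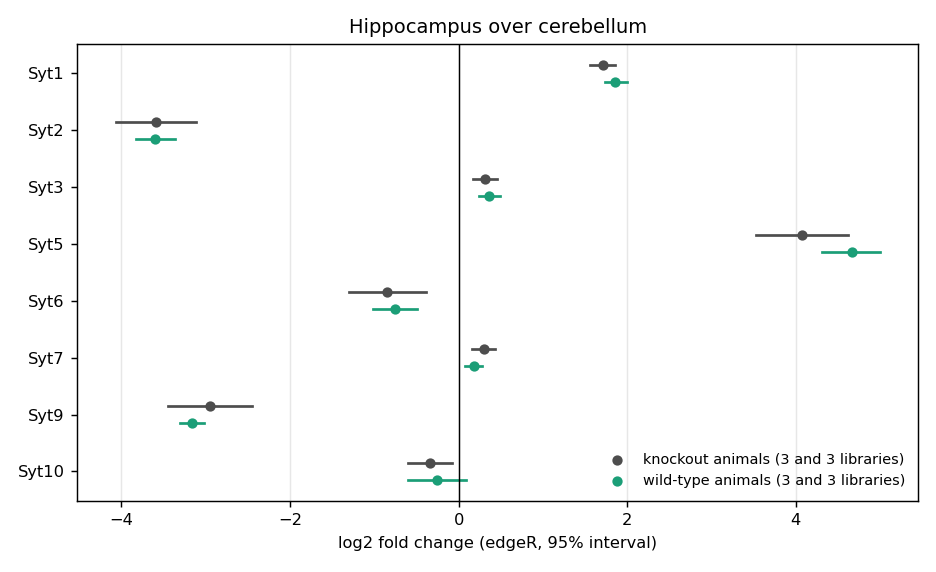
Log2 fold change of hippocampus over cerebellum for each of the 8 genes, with 95% intervals from edgeR, in knockout and wild-type animals. Positive values are higher in the hippocampus, and the intervals of the 2 genotypes overlap for each of the 8 genes, also for Syt5 (4.07 in knockouts, 4.66 in wild type).

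The knockout was compared with wild type within each tissue, which is the comparison the series was designed for, and no change was called among the 8 genes. In the hippocampus edgeR called 0 of the 8, and 0.0% of the 17693 genes tested. DESeq2 called 0 of the 8 and 4 of all genes, limma-voom 0 and 0, and at an unadjusted p under 0.05 there were 1 of the 8 genes and 767 of all genes (4.34%). The 1 gene was Syt7, which averaged 525 ± 25.8 CPM in knockout and 486 ± 10 CPM in wild-type hippocampus (SD, n = 3 each). Its log2 fold change was 0.11 ± 0.045, with a 95% interval of 0.016 to 0.21 (unadjusted p = 0.0263 and adjusted p = 0.995 by edgeR), and the groups overlapped.

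Syt1 averaged 1759 ± 70.2 CPM in knockout hippocampus and 1859 ± 63.4 CPM in wild-type hippocampus, a log2 fold change of -0.078 ± 0.042 (adjusted p = 0.995 by edgeR). Its 95% interval ran from -0.168 to 0.0127. As a share of the wild-type level, the 95% interval for Syt3 was 89.1 to 105%, for Syt5 90.9 to 108% and for Syt7 101 to 116%. The intervals were wider for the genes of lower level in this tissue: 67.3 to 123% for Syt2, 70.5 to 113% for Syt10, 71.2 to 127% for Syt6 and 77.2 to 156% for Syt9. None of the 8 genes had hippocampus libraries that separated by genotype, against 9.81% of all genes tested.

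In the cerebellum edgeR again called 0 of the 8 genes, and 0.0113% of the 17733 genes tested (2 genes). DESeq2 called 0 of the 8 and 38 of all genes, limma-voom 0 and 2, and at an unadjusted p under 0.05 there were 1 of the 8 and 1200 of all genes (6.77%). The 1 gene was Syt2, at 577 ± 25.9 CPM in knockout and 640.4 ± 28.9 CPM in wild-type cerebellum (SD, n = 3 each). Its log2 fold change was -0.15 ± 0.054, with a 95% interval of -0.271 to -0.0301 (unadjusted p = 0.0191 and adjusted p = 0.691 by edgeR), which places the knockout level at 82.9 to 97.9% of wild type. Syt2 was the 1 of the 8 genes whose cerebellum libraries did not overlap between genotypes, where 11.9% of all genes tested did not. A two-sided exact permutation test gave p = 0.1, the smallest value that 3 against 3 libraries allow. Syt2 lies on chromosome 1, as Syt14 does, 58.1 Mb away, and a bearing of this position on its level was not tested.

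Syt5 had the largest fold change of the 8 in the cerebellum and the least certain one. It averaged 7.95 ± 3.78 CPM in knockouts and 5.54 ± 2.28 CPM in wild type, a log2 fold change of 0.54 ± 0.35 with a 95% interval of -0.238 to 1.31 (adjusted p = 0.816 by edgeR). Without knockout cerebellum replicate 1 the log2 fold change was 0.15, and without wild-type cerebellum replicate 1 it was 0.90. Without a filter on low counts edgeR called it (adjusted p = 0.0206), in a fit that also called 417 genes in all. For the other members the knockout cerebellum level lay at 93.5 to 117% of wild type for Syt1, 90.4 to 110.2% for Syt3, 90.7 to 108% for Syt7, 85.5 to 103% for Syt9, 82.3 to 122% for Syt6 and 77.8 to 113% for Syt10, as 95% intervals.

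**Figure D4:**
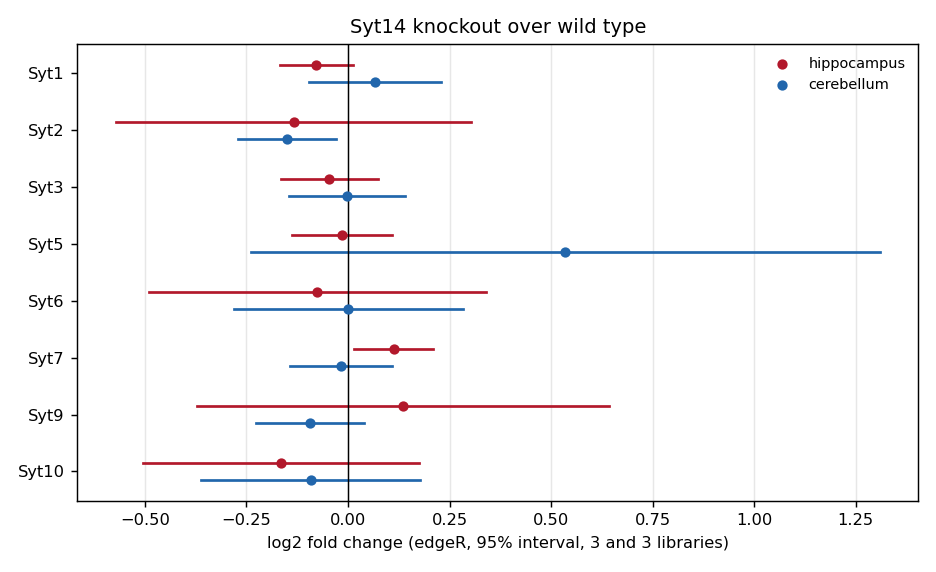
Log2 fold change of Syt14 knockout over wild type for each of the 8 genes, with 95% intervals from edgeR, in hippocampus and cerebellum. The intervals of Syt7 in the hippocampus (0.0157 to 0.21) and Syt2 in the cerebellum (-0.271 to -0.0301) leave out 0 before adjustment, and none of the 8 genes passed the adjusted threshold.

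The knockout effect was also compared between the tissues directly, over all 12 libraries. The pairing of tissues within an animal was left out of this fit as well. The difference of effects was called for 0 of the 8 genes, where 0.0105% of the 19027 genes tested were called (2 genes). DESeq2 called 0 of the 8 and 11 of all genes, limma-voom 0 and 2, and at an unadjusted p under 0.05 there were 0 of the 8 and 1016 of all genes (5.34%). The difference was largest for Syt5, at -0.57 ± 0.34 on the log2 scale, hippocampus effect minus cerebellum effect (95% interval -1.31 to 0.165, adjusted p = 0.932 by edgeR). For Syt1 it was -0.147 ± 0.094 and for Syt7 0.127 ± 0.077, with intervals of -0.346 to 0.0533 and -0.0362 to 0.291.

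For 3 members with a wide spread, markers of other cells or regions are set beside the values of the same libraries. In the hippocampus Syt2 was lowest in knockout replicate 1 and highest in knockout replicate 3. Mbp, which encodes the myelin basic protein of oligodendrocytes, read 1991, 2502 and 2914 CPM in the knockout hippocampus libraries and 2811, 2129 and 2506 CPM in wild type, so that knockout replicates 1 and 3 were again lowest and highest. In wild type the order differed, with Syt2 highest in replicate 3 and Mbp in replicate 1. Mobp and Mog, also of the oligodendrocyte list, were lowest and highest in the same libraries. Mag was lowest in knockout replicate 1 as well, at 132 CPM, but highest in wild-type replicate 1, at 193 CPM. The part of oligodendrocytes in the Syt2 values was not tested.

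Syt9 in the hippocampus was highest in knockout replicate 2, at 12.2 CPM. Among the 10 genes of the brainstem marker list, Shox2, a transcription factor that also marks thalamic neurons, read 0, 7.27 and 0 CPM in knockout hippocampus and 0.112, 0 and 0 CPM in wild-type hippocampus. Gata3, of the same list, read 0, 0.743 and 0 CPM in knockout and 0 in every wild-type hippocampus library. The 10 genes summed to 2.93, 11.5 and 2.72 CPM in knockout and 4.19, 3.69 and 2.96 CPM in wild-type hippocampus. Of the other genes, Slc6a2 and Slc18a3 were at 0 in all 3 knockout libraries. Dbh (0.608 CPM) and Chat (0 CPM) were not highest in knockout replicate 2. Without knockout replicate 2 the Syt9 log2 fold change in the hippocampus was -0.23, against 0.135 with it (adjusted p = 0.997 and 0.995 by edgeR). The hippocampus over cerebellum change of Syt9 in knockouts was then -3.31, against -2.95 with it. Knockout replicates 1 and 3, both at 0 for Shox2, still differed in Syt9 (8.14 and 5.20 CPM). Without knockout replicate 3, the library lowest in Syt9, the hippocampus log2 fold change was 0.397 (adjusted p = 0.548 by edgeR). Leaving out the library highest or lowest in Syt9 moves the value whatever the marker genes read. The part of the marker genes in the Syt9 spread was not tested.

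In the cerebellum Syt5 followed Sst, the somatostatin gene of interneurons. Sst read 13.3, 4.83 and 1.07 CPM in the knockouts and 4.48, 2.63 and 1.45 CPM in wild type, in the same order of libraries as Syt5 within each genotype. The 6 inhibitory interneuron markers summed to 1406 to 1520 CPM in knockout and 1431 to 1543 CPM in wild-type cerebellum, so the list as a whole did not move with Syt5. The 10 brainstem genes summed to 76.8, 99.9 and 54.3 CPM in knockout and 59.6, 63.6 and 55.6 CPM in wild-type cerebellum. Most of this sum was Slc6a5, at 46.6, 55.7 and 52.4 CPM in knockout and 52.7, 61.6 and 53.0 CPM in wild type. The sum thus says little about the other genes of the list. In the knockouts Shox2 read 7.17, 0.943 and 0.104 CPM and Dbh 3.61, 10.8 and 0.104 CPM. In wild type Shox2 read 0.0821, 0.0572 and 0.0315 CPM and Dbh 1.11, 0.372 and 0.535 CPM. Shox2 was thus highest in knockout replicate 1, as Syt5 was, whereas Dbh and the sum were highest in replicate 2. Their part in the Syt5 values was not tested. Shox2, Gata3, Slc6a5 and Sst were picked out of their marker lists after their values had been seen.

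**Figure D5:**
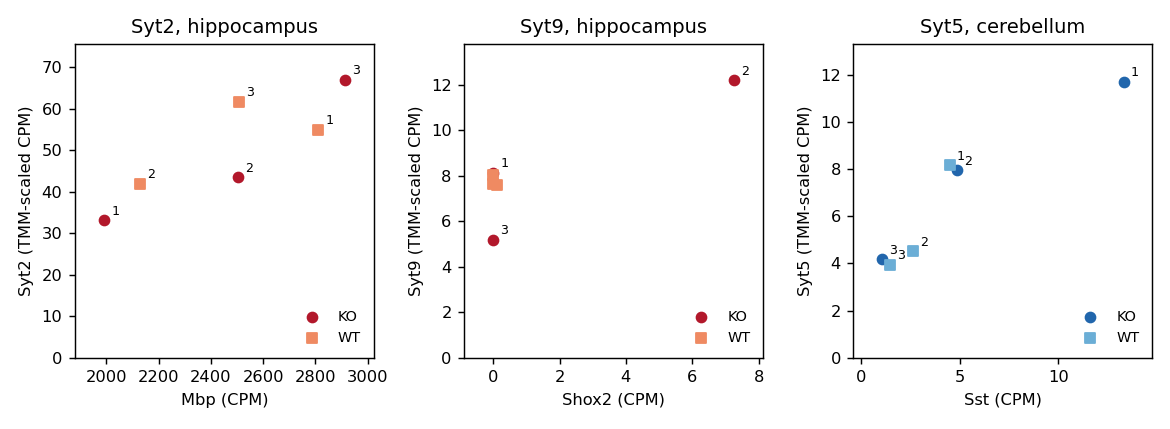
Level of Syt2 and Syt9 in the hippocampus and of Syt5 in the cerebellum, per library, against Mbp, Shox2 and Sst (members in TMM-scaled CPM, markers in plain CPM). Numbers are replicates (the 3 overlapping wild-type points of the middle panel are unnumbered), and knockout replicate 2 stands apart in the middle panel with 12.2 CPM of Syt9 and 7.27 CPM of Shox2.

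Each member was compared with 13714 expressed genes over the 12 libraries for likeness of its log2 level, by Pearson's r. Levels most like those of Syt1 were those of Slc39a10 and Atxn10 (r = 0.999 each), of Syt2 Mapk6 and Shisa8 (0.999 each), of Syt5 Basp1 (0.999) and Zfp831 (0.998), and of Syt9 Mybpc3 and Pde9a (0.997 each). Between 3015 and 3519 genes had r over 0.9 with each of these 4, since the points share tissue and animals. The members with small tissue differences had looser matches, with Sppl3 (0.976) and Bahd1 (0.974) for Syt3, Prkra (0.962) and Fbxo5 (0.961) for Syt6, Dclre1c (0.973) and Rad9b (0.970) for Syt7, and Bod1l (0.932) and Wapl (0.916) for Syt10. With r over 0.9 there were 2154 genes for Syt3, 204 for Syt6, 205 for Syt7 and 3 for Syt10.

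After the 4 group means were taken out, so that r follows only the spread within groups, the nearest genes were Cst6 (0.987) and Shisa8 (0.979) for Syt2, Ctxn1 (0.962) and Sst (0.957) for Syt5, and Ap1g1 (0.963) and Vipr2 (0.954) for Syt9. They were Mettl22 (0.982) and Mphosph9 (0.948) for Syt7, Cops8 (0.974) and Galnt16 (0.950) for Syt6, Atxn10 (0.927) and Sprn (0.914) for Syt1, Arid1a (0.913) for Syt3, and Tbc1d12 (0.936) and Zfp108 (0.905) for Syt10. Shisa8 and Atxn10 were thus near Syt2 and Syt1 on both measures. On the spread within groups, from 3 genes (Syt10) to 98 genes (Syt2) had r over 0.9 with a member. The r named are the highest among 13714 genes, and how high the top r would run by chance was not tested. These r describe 12 points that share libraries within animals and carry no test.

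The synaptotagmins outside the set were counted for comparison: Syt4, Syt8 and Syt11 to Syt17, of which 8 of 9 were tested and Syt8 was filtered out. The knockout called 0 of them in either tissue (edgeR), with 1 at an unadjusted p under 0.05 in each, which was Syt14. Over all genes tested, 4.34% in the hippocampus and 6.77% in the cerebellum had such a p. Between hippocampus and cerebellum, 4 were called higher and 2 lower in knockouts, and 4 higher and 2 lower in wild type. Over all genes tested, 64.1% were called in knockouts and 66.1% in wild type. Syt17 read 76.8 ± 12.9 CPM in knockout hippocampus and 4.08 ± 1.23 CPM in knockout cerebellum (log2 4.23), and 81.3 ± 5.27 CPM in wild-type hippocampus and 3.68 ± 0.658 CPM in wild-type cerebellum (log2 4.49). Syt12 ran the other way, at log2 -1.62 in knockouts and -1.64 in wild type. The median size of the tissue change over these genes was 0.768 in knockouts and 0.781 in wild type. It was 1.28 and 1.31 for the 8 calcium sensors, and 0.462 and 0.464 over all genes tested.

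Fusion machinery and its partners were read from a list of 25 genes, all of them tested. The list held SNARE proteins, complexins, Munc13 and RIM priming factors, SV2 vesicle proteins and other C2 domain proteins. The knockout called 0 of 25 in either tissue (edgeR). Over all genes tested, 0.0% were called in the hippocampus and 0.0113% in the cerebellum. At an unadjusted p under 0.05 there were 1 in the hippocampus, Esyt2 at log2 -0.173, and 3 in the cerebellum, Sv2c at 0.315, Sv2b at -0.176 and Rph3a at -0.159. Such a p was held by 4.34% of all genes tested in the hippocampus and 6.77% in the cerebellum. Sv2c, a synaptic vesicle glycoprotein, read 122, 134 and 141 CPM in knockout cerebellum and 98.1, 102 and 119.7 CPM in wild-type cerebellum, with no overlap and adjusted p = 0.518 by edgeR. The genotypes did not overlap in the cerebellum for 3 of the 25 genes, against 11.9% of all genes tested. Between tissues, 11 were called higher and 8 lower in the hippocampus of knockouts and 12 higher and 9 lower in wild type. A call was common among all genes tested, at 64.1% in knockouts and 66.1% in wild type. Stx1a, a syntaxin of the SNARE complex, stood at 93.6 ± 16.5 CPM in knockout hippocampus and 3.02 ± 1.46 CPM in knockout cerebellum, and at 93.8 ± 7.79 CPM in wild-type hippocampus and 2.0 ± 0.195 CPM in wild-type cerebellum. Unc13c, the Munc13 of cerebellar granule cells, was lower in the hippocampus of wild type at log2 -2.60, in the direction of Syt2 and Syt9.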

How the data were processed

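The values deposited by the authors are raw, unscaled counts of reads per gene in a table for each tissue. Per the labels' protocols, poly(A) RNA was made into strand-specific dUTP libraries. Trimming with Trimmomatic 0.39, alignment software STAR 2.7.10, featureCounts 2.0.3 and the build mm10 (GRCm38) are listed in the submitters' processing notes. The sources used here give neither the strand setting nor the annotation release. Of 54446 identifiers, 54409 matched GENCODE M21. Promoters are from RefSeq (GRCm38.p6).

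Each comparison was fitted on its own libraries with edgeR 4.0.16 in R 4.3.3 (filterByExpr with minimum count 10 and minimum total 15, TMM factors, quasi-likelihood fit and two-sided test), with Benjamini-Hochberg adjustment over all genes tested and calls at an adjusted p under 0.05; the difference of effects used all 12 libraries. The main fits held no term for the animal. SE is the size of the log2 fold change over the square root of F. Levels are CPM scaled by TMM factors over 12 libraries, except marker genes, in plain CPM. Alternatives were DESeq2 1.42.0, limma 3.58.1 (voom), other scalings and filters, a block and leaving out each library. The fits were tested on simulated data. No library of a group was a copy of another, with a chi-square of 3.91 to 11.6 per gene. Counts are reads without molecular identifiers. The labels' animal numbers pair the tissues within a genotype, and the deviations of the paired libraries correlated at 0.00707 to 0.0483 in knockouts and 0.0619 to 0.0814 in wild type.

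The 8 genes, the lists and the markers were chosen with earlier results of these data known. Named by rule were the 8 genes, Syt14, up to 3 other synaptotagmins and 4 fusion genes by smallest p in a comparison, and the 2 genes most like each member; other genes were chosen after their values were seen. Some genes of the lists or the rule are not reported here. Tables and figures were made with Python 3.11.15, pandas 2.3.3, numpy 2.4.6, scipy 1.17.1 and matplotlib 3.10.9.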

Additional observations from a re-analysis of the deposited data

How the results depend on the processing

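The tissue calls of Syt1, Syt2, Syt3, Syt5, Syt6 and Syt9 kept their direction and their side of the threshold under all 14 alternatives in both genotypes, and Syt7 did so in knockouts. No genotype call among the 8 genes appeared except for Syt5 with no filter on low counts, where 1 of the 8 was called in the cerebellum and 1 for the difference of effects. The widest genotype intervals were those of Syt5 in the cerebellum (126 to 319 counts) and of Syt9 (151 to 345 counts) and Syt2 (790 to 1945 counts) in the hippocampus; what limits them was not tested. The causes of the changes below were not tested.

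All genes called in the hippocampus for genotype (0 in the main fit) were 77 with no filter, 4 with DESeq2 and 0 to 2 when 1 library was left out. In the cerebellum (2) they were 417 with no filter, 38 with DESeq2, 4 with all 12 libraries and 2 to 33 when 1 was left out (33 without knockout replicate 3, 4 without wild-type replicate 3). For the difference (2) they were 275 with no filter, 11 with DESeq2 and 2 to 44 when 1 was left out (44 without knockout cerebellum replicate 3, 4 without wild-type hippocampus replicate 1).

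With the replicate number as a block, 2 genes (hippocampus) and 36 genes (cerebellum) were called, and 0 of the 8 in either. The number joins different animals there: same-numbered libraries correlated at -0.00803 to 0.0443 (hippocampus) and 0.0852 to 0.251 (cerebellum, where each library was nearest to its own number). Blocking by animal changed no call of the 8 genes between tissues or for the difference.

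Values that turned sign were all uncalled. Syt6 in the cerebellum was -0.00176 with DESeq2 size factors, -0.00513 with no filter, -0.00287 at a minimum count of 30, -0.00168 with DESeq2, -0.0196 with limma-voom and -0.0159 with the block. Syt3 in the cerebellum was 0.00805 with library totals. The Syt2 difference was -0.0155 with limma-voom and -0.0245 with the block. With 1 library left out, the hippocampus values ranged over -0.457 to 0.0648 for Syt2, -0.0818 to 0.0026 for Syt3, -0.0476 to 0.0359 for Syt5, -0.221 to 0.132 for Syt6 and -0.23 to 0.397 for Syt9. The cerebellum values ranged over -0.00502 to 0.128 for Syt1, -0.0407 to 0.0614 for Syt3, -0.171 to 0.0812 for Syt6, -0.0711 to 0.0168 for Syt7 and -0.205 to 0.0049 for Syt10. The differences ranged over -0.311 to 0.213 for Syt2, -0.115 to 0.00128 for Syt3, -0.224 to 0.129 for Syt6, -0.146 to 0.492 for Syt9 and -0.197 to 0.0824 for Syt10.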
